A study of Mus musculus with 20 samples.

Results

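Cyclin-dependent kinase (CDK) inhibitors and D cyclins were followed in mouse T cells grown for weeks in IL-7 and IL-15. The genes were chosen by symbol, after the gene identifiers of the count table had been matched to mouse names. They were the 4 INK4 inhibitors (Cdkn2a, Cdkn2b, Cdkn2c and Cdkn2d), the CIP/KIP inhibitors Cdkn1a and Cdkn1b, the D cyclins Ccnd1, Ccnd2 and Ccnd3, and Ccng1, a cyclin gene induced by p53. They made up 10 of the 49671 genes in the table. Polyadenylated RNA had been sequenced in 20 libraries, with 5 for CD8 at week 4, 5 for CD8 at week 1, 5 for CD4 at week 3 and 5 for CD4 at week 1. All cells had been isolated by kit from spleen and inguinal lymph nodes, activated on plates coated with antibodies to CD3 and CD28 in the presence of 1 ng/mL IL-2, and moved to 10 ng/mL IL-7 with 50 ng/mL IL-15. That second culture lasted 25 days for CD8 week 4, 4 days for CD8 week 1, 18 days for CD4 week 3 and 4 days for CD4 week 1. Cells with the surface phenotype of central memory T cells were then sorted to above 97%. The donors named in the labels were albino B6 mice (polyclonal cells, activated for 72 h) and the transgenic Marilyn-BLITC and MataHari-BLITC lines (activated for 24 h), without a statement of which library came from which. No group lacked the cytokines, so their effect cannot be read here. Groups were compared by culture time or cell type, and donor line and length of activation may differ between them as well. The labels do not tie libraries of a group to separate animals or cultures. The p-values therefore reflect variation among these samples alone, and that variation may be technical.

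The D cyclins bind the kinases CDK4 and CDK6, and the active pairs phosphorylate the retinoblastoma protein, which frees E2F factors to transcribe the genes of S phase. INK4 proteins bind CDK4 and CDK6 and keep D cyclins off them, while the CIP/KIP proteins p21 and p27 act on cyclin complexes more widely, chiefly on CDK2. In T cells D cyclins are induced by antigen and cytokine receptors, p27 is abundant in resting cells, and the Cdkn2a and Cdkn2b locus is kept low by Polycomb complexes and known for its rise in ageing and long-cultured cells.

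Cdkn2b and Cdkn2a lie side by side on the minus strand of chromosome 4. The 250 bases before 3 of their annotated starts are shown because this locus carries the largest changes below, and because Cdkn2a has separate starts for its products p19ARF and p16INK4a, which start 12427 bases apart. The Cdkn2b start lies 16413 bases from the first Cdkn2a start. Sequences are RefSeq's, on GRCm38.p6, 5′ to 3′ in the direction of transcription.
Cdkn2b start, chr4:89311033-89311282: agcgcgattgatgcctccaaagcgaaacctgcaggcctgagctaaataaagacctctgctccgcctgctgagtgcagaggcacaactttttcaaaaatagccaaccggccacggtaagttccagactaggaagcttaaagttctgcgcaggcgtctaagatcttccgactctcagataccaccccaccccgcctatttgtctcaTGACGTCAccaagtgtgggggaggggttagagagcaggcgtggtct
Cdkn2a first start (p19ARF side), chr4:89294620-89294869: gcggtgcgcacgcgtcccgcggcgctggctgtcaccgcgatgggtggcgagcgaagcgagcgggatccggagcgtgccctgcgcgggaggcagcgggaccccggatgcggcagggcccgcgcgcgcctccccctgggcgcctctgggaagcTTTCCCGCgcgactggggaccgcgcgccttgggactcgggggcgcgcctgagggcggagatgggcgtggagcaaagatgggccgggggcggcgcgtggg
Cdkn2a second start (p16INK4a side), chr4:89282193-89282442: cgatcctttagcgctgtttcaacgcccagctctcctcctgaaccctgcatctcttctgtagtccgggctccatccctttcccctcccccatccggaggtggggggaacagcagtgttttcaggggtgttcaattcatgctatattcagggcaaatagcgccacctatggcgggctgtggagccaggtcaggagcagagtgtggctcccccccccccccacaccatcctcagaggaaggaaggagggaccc
Capitals mark a cAMP response element (TGACGTCA) at -46 before Cdkn2b and an E2F motif (TTTCCCGC) at -99 before the first Cdkn2a start. Both strands were searched for TGACGTCA, which 1.55% of 32851 mouse promoter windows of this length hold, and for the E2F letters TTTCCCGC, TTTGGCGC, TTTCGCGC and TTTGCCGC, of which 1.86% of the windows hold at least 1. The second Cdkn2a window held neither set of letters. Over 12 starts of the 8 genes found in the table, the GC box GGGCGG was in 7 windows (32.7% of all windows), CCAAT in 4 (33.8%), the forkhead letters GTAAACA in 1 (3.17%) and the CHR letters TTTGAA in 1 (15.99%, with no overlap of another match). STAT (TTCNNNGAA, 7.02%), SMAD (GTCTAGAC, 0.167%) and E box (CACGTG, 6.02%) letters were in none, and a match is a description of letters only. Counts were made per gene, so p16INK4a and p19ARF transcripts of Cdkn2a cannot be told apart here.

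Library totals ran between 13.3 and 28.3 M counts. Cd8a and Cd8b1 together reached 988 to 2677 CPM (counts scaled to a common library total) in CD8 libraries and 1.603 to 30.7 CPM in CD4 libraries. Cd4 had no count in CD8 week 4 and at most 0.585 CPM in CD8 week 1, against 510.2 CPM or more in CD4 libraries, so the labels matched the markers. Of the lists for other lineages, 6 B cell markers summed to at most 13.08 CPM, 8 myeloid markers to at most 23.3 CPM and mast cell or basophil markers to at most 3.35 CPM. The 6 NK cell markers summed to 243 to 435 CPM in CD8 week 4, 227 to 408 CPM in CD8 week 1, 1.25 to 10.4 CPM in CD4 week 3 and 0.471 to 22.2 CPM in CD4 week 1. In CD8 libraries that sum was mostly Eomes and Klrc1, both also genes of activated CD8 T cells, with Klra4 and Klra8 at or near 0 and Ncr1 at most 3.60 CPM. Klrb1c was present too, at 6.10 to 47.6 CPM in CD8 week 4 and 2.74 to 20.5 CPM in CD8 week 1. In CD4 libraries it was at most 0.755 CPM. The 5 stromal or endothelial markers summed to 61.02 to 89.1 CPM in CD8 week 4, 68.5 to 107 CPM in CD8 week 1, 105 to 189 CPM in CD4 week 3 and 157 to 253 CPM in CD4 week 1. Nearly all of it was Pecam1, with Cdh5 at most 3.26 CPM. The part of these markers in the results was not tested. Replicate numbers follow sample order within each group, not the labels, so a number shared by both times marks no known pair. By the numbers in the sample titles, CD8 replicates 1 to 3 belong to title range A and replicates 4 and 5 to title range B. All CD4 libraries lie in a range of their own, so title range and cell type cannot be told apart. A fit within title range A holds replicates 1 to 3 of each CD8 time, and within title range B only replicates 4 and 5. Results of both ranges are thus not like for like. CD8 week 1 replicates 4 and 5 were the most alike of 40 pairs within groups (chi-square per degree of freedom 6.31). Some libraries stood apart. CD8 week 1 replicate 3 had the lowest Mki67, a gene of cycling cells, in its group (543 CPM, against 947 to 1082 in the other 4), and the summed level of 20 E2F target genes was 2020 CPM there, against 4286 to 4889. CD4 week 3 replicate 2 had the highest (630.3 CPM, against 21.7 to 158 in the other 4). CD8 replicates 1 and 2 of both times held more of the dendritic cell markers (36.2 and 36.4 CPM at week 4, 20.6 and 26.02 CPM at week 1) than the other CD8 libraries (1.55 to 6.96 CPM), nearly all of it Itgax, with Flt3, Clec9a and Siglech at 0. At week 4 this pair also had less Cd8a and Cd8b1 (1180 and 988 CPM together, against 1981 to 2677 CPM in replicates 3 to 5). Zbtb7b, the other gene of the CD4 list, was at 43.4 and 55.5 CPM in the pair, against 4.73 to 12.8 CPM. Of this gene, CD8 week 1 libraries held 16.5 to 55.4 CPM (median 41.2), a range that includes the first value of the pair. CD4 libraries held 128 CPM of it or more. The part of these differences in the results was not tested.

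Of the 10 genes, 9 had enough counts to be tested in the main fit, and Ccnd1 did not. In CD8 cells 5 of the 9 were higher at week 4 than at week 1 (Cdkn2b, Cdkn2a, Cdkn1b, Ccnd2 and Ccng1) and none was lower. The test was edgeR's quasi-likelihood test at a Benjamini-Hochberg adjusted p under 0.05 over all 13290 tested genes. In CD4 cells Cdkn2b was higher and Cdkn2d lower at week 3 than at week 1, and the other 7 did not pass. As background, 17.1% of all tested genes were higher and 16.4% lower in the CD8 comparison, 33.5% in all, so 5 of 9 stands above the share of all genes and rests on few genes. In the CD4 comparison 7.67% were higher and 8.8% lower, 16.5% in all, and 2 of 9 is close to that. The median log2 fold change of the 9 was 0.48 in CD8 cells, against 0.029 over all tested genes, and 0.32 in CD4 cells, against 0.0085. A fit of the difference of these changes, CD8 minus CD4, passed for none of the 9 (edgeR), with 1 at an unadjusted p under 0.05 (Ccnd2) and 0.655% of all genes called.

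**Figure D1:**
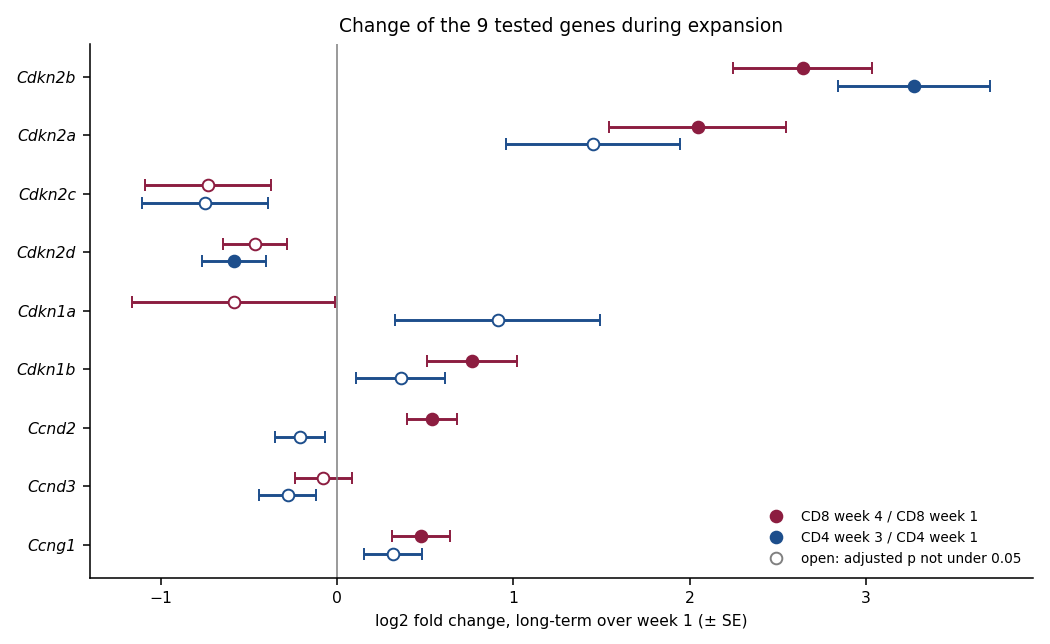
Log2 fold change (horizontal axis, ± SE) of the 9 tested genes for CD8 week 4 over CD8 week 1 (red) and CD4 week 3 over CD4 week 1 (blue), from 5 libraries a group, with filled points where the adjusted p was under 0.05. Cdkn2b sits farthest to the right in both, at 2.64 and 3.27, and Cdkn2c and Cdkn2d lie left of 0 in both.

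Cdkn2b (ENSMUSG00000073802, chr4:89306289-89311032, minus strand, GRCm38) encodes p15INK4b, an inhibitor of CDK4 and CDK6. It was at 5.32, 5.91, 11.6, 7.96 and 9.53 CPM in CD8 week 4 libraries (replicates 1 to 5, on library sizes scaled by TMM, edgeR's trimmed mean factors), against 0.518, 1.01, 1.46, 2.16 and 1.204 CPM in CD8 week 1 libraries. In CD4 week 3 libraries it was at 3.04, 7.03, 3.38, 3.005 and 1.18 CPM, against 0.415, 0.282, 0.450, 0.363 and 0.292 CPM in CD4 week 1 libraries. Every long-term library lay above every week 1 library of its cell type, and CD4 week 1 was the lowest group throughout; 8.14% of all tested genes had no overlap between the CD4 times. The means were 8.06 ± 2.59, 1.27 ± 0.604, 3.53 ± 2.14 and 0.360 ± 0.0738 CPM for CD8 week 4, CD8 week 1, CD4 week 3 and CD4 week 1 (SD, n = 5 each). The log2 fold change was 2.64 ± 0.39 in CD8 cells (± SE, adjusted p = 0.000163), 6.24-fold, and 3.27 ± 0.43 in CD4 cells (adjusted p = 0.000204), 9.67-fold. These rises rest on low levels: CD4 week 1 libraries held 6 to 10 counts each and CD4 week 3 libraries 28 to 160, so the gene entered the test through the other groups. Within CD8 cells the change was 2.92 (adjusted p = 0.0338) in title range A and 2.27 (adjusted p = 0.00157) in title range B, and the call held in each alternative fit run for either comparison. In these bulk libraries, more cells with the transcript and more transcript per cell cannot be told apart, here or for the other genes.

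Cdkn2a (ENSMUSG00000044303, chr4:89274471-89294653, minus strand) encodes p16INK4a, another inhibitor of CDK4 and CDK6, and p19ARF, which acts on the p53 inhibitor MDM2. Its CD8 week 4 libraries were at 8.96, 9.23, 15.4, 14.7 and 21.6 CPM, against 1.76, 2.74, 2.17, 5.27 and 4.97 CPM at CD8 week 1. Those groups did not overlap, as was so for 3 of the 9 tested genes and for 20.8% of all tested genes. The log2 fold change was 2.05 ± 0.50 (adjusted p = 0.00504, 4.13-fold), and it was 2.32 (adjusted p = 0.0291) in title range A and 1.801 (adjusted p = 0.00159) in title range B, so the call held in each range and in every other alternative run for CD8 cells. In CD4 cells the week 3 libraries were at 6.83, 21.5, 5.09, 3.005 and 3.59 CPM, against 2.78, 2.02, 5.15, 3.18 and 1.499 CPM at CD4 week 1. Replicate 2 stood far above the other CD4 week 3 libraries, of which replicates 3 to 5 lay within the CD4 week 1 range. The CD4 change, 1.45 ± 0.49, had an adjusted p of 0.0509 and was not called, and without CD4 week 3 replicate 2 it was 0.66 (adjusted p = 0.218). It passed in 5 alternatives, among them DESeq2 (adjusted p = 0.0172) and leaving out CD4 week 3 replicate 4 (adjusted p = 0.0435) or 5 (adjusted p = 0.0458) or CD4 week 1 replicate 3 (adjusted p = 0.0457).

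**Figure D2:**
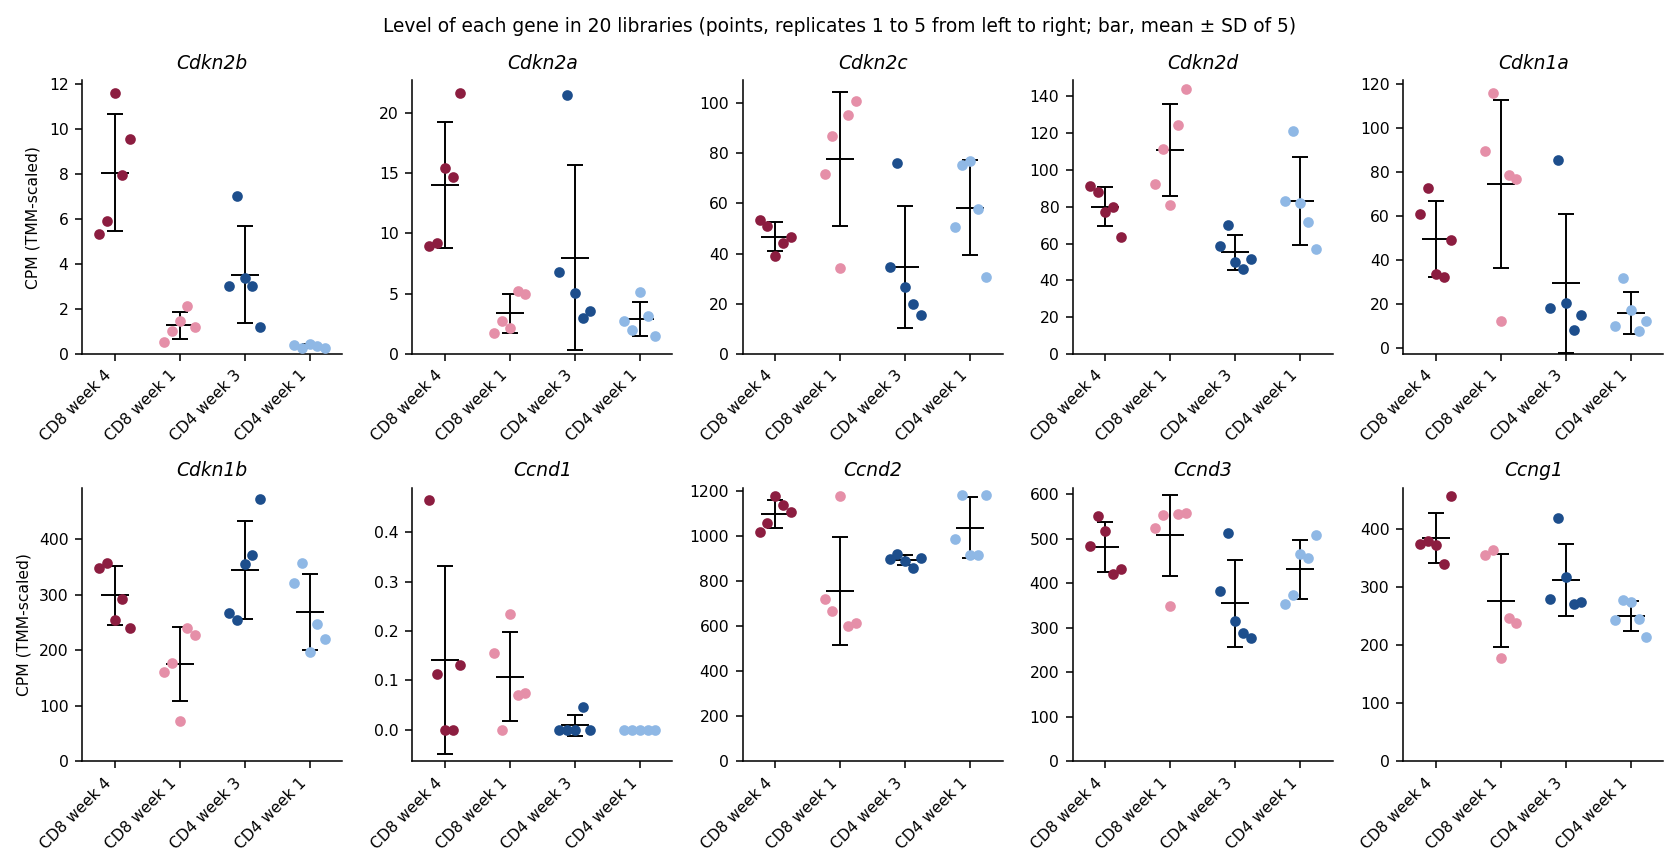
Level of each gene in CPM (vertical axis, own scale per gene) in the 20 libraries by group, with a point per library and the mean ± SD of 5 in black. Cdkn2b and Cdkn2a are high in CD8 week 4, at 8.06 ± 2.59 and 13.99 ± 5.22 CPM, against 1.27 ± 0.604 and 3.38 ± 1.63 CPM in CD8 week 1, and CD4 week 3 replicate 2 lies apart from its group for Cdkn1a and Cdkn2a.

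Cdkn2c (ENSMUSG00000028551, chr4:109660876-109667189, minus strand) encodes p18INK4c. Its CD8 week 4 libraries lay close together at 53.4, 51.1, 39.02, 44.1 and 46.5 CPM, against 71.8, 86.8, 34.4, 95.2 and 101 CPM at CD8 week 1, where replicate 3 was the lowest of all 10 CD8 libraries. In CD4 cells the week 3 libraries were at 34.5, 76.1, 26.6, 20.03 and 15.8 CPM, against 50.6, 75.2, 76.8, 57.96 and 30.9 CPM at CD4 week 1, and replicate 2 at week 3 was as high as the highest week 1 libraries. Neither change passed, with log2 fold changes of -0.73 ± 0.36 in CD8 cells (adjusted p = 0.121) and -0.75 ± 0.36 in CD4 cells (adjusted p = 0.151). Leaving out 1 library moved each past the threshold. Without CD8 week 1 replicate 3 the CD8 value was -0.92 (adjusted p = 0.0416), and without CD4 week 3 replicate 2 the CD4 value was -1.27 (adjusted p = 0.00454). Those are the libraries whose Mki67 stood apart, and the part of that in the result was not tested. By title range the CD8 change was -0.45 (adjusted p = 0.444) in title range A and -1.13 (adjusted p = 0.000142) in title range B, and with only the CD8 groups in the fit it was -0.75 (adjusted p = 0.0332).

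Cdkn2d (ENSMUSG00000096472, chr9:21288410-21291407, minus strand) encodes p19INK4d, whose protein is known to vary through the cell cycle. CD8 week 4 libraries were at 91.2, 87.9, 77.3, 79.9 and 63.8 CPM, against 92.6, 111, 80.97, 124 and 144 CPM at CD8 week 1. In CD4 cells its values were 58.7, 70.3, 49.7, 46.2 and 51.9 CPM at week 3, against 83.1, 121, 82.1, 71.5 and 57.1 CPM at week 1. Long-term libraries were mostly the lower ones in both cell types, with overlap in both. The fall passed in CD4 cells (log2 fold change -0.58 ± 0.18, adjusted p = 0.0349), though 8 of 17 alternatives ended that call, each by leaving out a library except the fit of the CD4 groups alone (adjusted p = 0.0676). The value moved most without CD4 week 1 replicate 2, to -0.41 (adjusted p = 0.106). In CD8 cells it was -0.47 ± 0.18 (adjusted p = 0.0530) and was called in 7 of 21 alternatives, among them DESeq2 (adjusted p = 0.0349) and library totals (adjusted p = 0.0323). By title range it was -0.17 (adjusted p = 0.516) in title range A and -0.92 (adjusted p = 0.00242) in title range B.

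Levels of the 4 INK4 genes were compared per length, as TPM (transcript abundance scaled to a fixed total) on merged exon length. Cdkn2d was the most abundant in all groups, with 58.99 ± 6.496%, 68.9 ± 4.42%, 64.7 ± 11.5% and 68.5 ± 5.35% of summed INK4 TPM for CD8 at week 4, CD8 at week 1, CD4 at week 3 and CD4 at week 1 (SD, n = 5 each). Cdkn2a took 13.99 ± 5.57% in CD8 week 4, against 2.71 ± 0.788% in CD8 week 1, and 10.3 ± 5.12% in CD4 week 3, against 3.28 ± 1.33% in CD4 week 1. For Cdkn2b the shares were 6.77 ± 2.29% in CD8 week 4, against 0.921 ± 0.481% in CD8 week 1, and 4.24 ± 1.401% in CD4 week 3, against 0.353 ± 0.0939% in CD4 week 1. The long-term mix thus held more of the 2 neighbours on chromosome 4 while the sum of the 4 was 264 ± 9.67 TPM in CD8 week 4, against 325 ± 84.6 TPM in CD8 week 1, and 178 ± 74.8 TPM in CD4 week 3, against 247 ± 60.03 TPM in CD4 week 1. The libraries of the 2 times overlapped in both sums. Shares and sums were given no test.

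**Figure D3:**
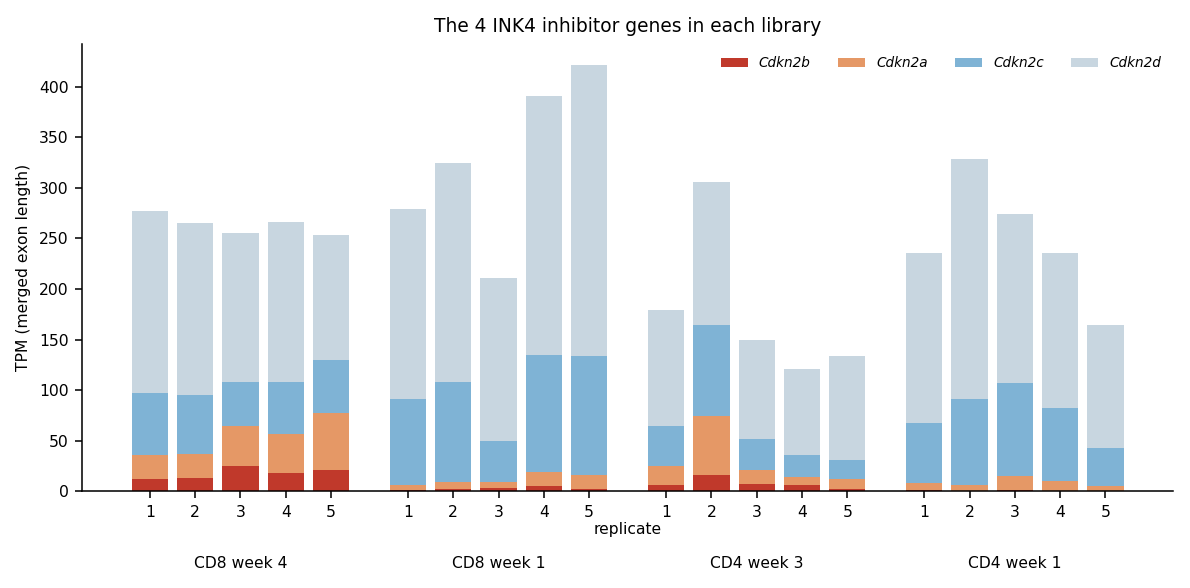
Stacked bars of the TPM of the 4 INK4 genes (vertical axis, merged exon length) in each of the 20 libraries, grouped by cell type and time. The Cdkn2b and Cdkn2a segments at the foot are large in CD8 week 4, where Cdkn2a takes 13.99 ± 5.57% of the sum, and thin in both week 1 groups, while Cdkn2d makes up most of nearly every bar.

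Cdkn1a (ENSMUSG00000023067, chr17:29090979-29100722, plus strand) encodes p21, the best known target of p53 among the inhibitors. CD8 week 4 libraries were at 60.8, 72.5, 33.5, 32.4 and 49.2 CPM, against 89.8, 116, 12.01, 78.6 and 76.7 CPM at CD8 week 1. At CD4 week 3 the libraries were at 18.2, 85.5, 20.5, 8.195 and 14.7 CPM, against 10.04, 31.7, 17.04, 7.497 and 12.2 CPM at CD4 week 1. CD8 week 1 replicate 3 lay far below, and CD4 week 3 replicate 2 far above, the rest of their groups, and groups overlapped. Neither change with time passed (log2 fold changes -0.59 ± 0.57 with adjusted p = 0.453 in CD8 cells and 0.91 ± 0.58 with adjusted p = 0.289 in CD4 cells). The CD4 value turned to -0.024 without CD4 week 3 replicate 2, the library with the most Mki67 in its group and with 18.8 CPM of erythroid markers, all Hba-a1, against at most 2.20 CPM in the other libraries; the part of these in the result was not tested. By title range the CD8 change was -0.41 (adjusted p = 0.765) in title range A and -0.95 (adjusted p = 0.00826) in title range B, so 1 range alone passed.

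Cdkn1b (ENSMUSG00000003031, chr6:134920401-134925513, plus strand) encodes p27, the inhibitor of resting lymphocytes. In CD8 cells the week 4 libraries were at 347, 357, 255, 292 and 240.4 CPM, against 161, 178, 71.9, 240.0 and 228 CPM at CD8 week 1, and the lowest at week 4 and the highest at week 1 all but met. For CD4 week 3 the values were 266, 255, 355, 372 and 472 CPM, against 319.9, 357, 196, 246 and 221 CPM at CD4 week 1, with overlap. It rose in CD8 cells by 1.699-fold (log2 fold change 0.76 ± 0.26, adjusted p = 0.0280) and did not pass in CD4 cells (0.36 ± 0.25, adjusted p = 0.339). The CD8 call depended on the libraries. Within ranges the change was 1.21 (adjusted p = 0.0928) in title range A and 0.17 (adjusted p = 0.208) in title range B. It was 0.58 (adjusted p = 0.144) without CD8 week 4 replicates 1 and 2. That pair had more Itgax and Zbtb7b and less Cd8a and Cd8b1 than the other CD8 week 4 libraries. Omitting replicate 1 or 2 of CD8 week 4, or replicate 1 of CD8 week 1, or fitting the CD8 groups alone, also ended it, at adjusted p between 0.0553 and 0.0603. Per length, Cdkn1b made up 75.01 ± 4.97% of the TPM of both CIP/KIP genes in CD8 week 4, against 56.6 ± 12.5% in CD8 week 1, and 85.2 ± 14.9% in CD4 week 3, against 89.5 ± 4.65% in CD4 week 1.

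Among the D cyclins, Ccnd1 (ENSMUSG00000070348, chr7:144929931-144939925, minus strand) was near the limit of detection. It had 13, 2, 0, 0 and 3 counts in CD8 week 4 libraries, against 3, 0, 4, 2 and 1 counts at CD8 week 1. CD4 week 3 libraries held 0, 0, 0, 1 and 0 counts, against no count in any CD4 week 1 library. Over all counts of a group it was at 0.158 CPM in CD8 week 4 (95% Poisson interval 0.0934 to 0.249), 0.107 CPM in CD8 week 1 (0.0513 to 0.197) and 0.00868 CPM in CD4 week 3 (0.000220 to 0.0484), intervals that cover counting error only. The limit that 0 counts allow in CD4 week 1 was 0.0265 CPM (3 counts over the group). The CD8 week 1 level of 0.107 CPM was 4.03-fold above that limit. This ratio leaves out the counting error of CD8 week 1, so it is not a lower bound. The ratio of CD8 week 4 to CD4 week 3 was 18.1 (counting interval 2.86 to 756), and without CD8 week 4 replicate 1, which held most of the counts, 6.702 (0.750 to 317). An edgeR fit without the count filter called Ccnd1 higher in CD8 week 1 than in CD4 week 1 (log2 fold change 4.28 ± 1.45, adjusted p = 0.0467). That call rests on the few counts above. The same fit did not call Ccnd1 between the long-term groups (3.43 ± 1.19, adjusted p = 0.0583). Nor did it call a change with time (adjusted p = 0.793 in CD8 cells and 0.615 in CD4 cells).

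Ccnd2 (ENSMUSG00000000184, chr6:127125162-127152193, minus strand) encodes cyclin D2, induced in T cells by antigen and cytokine receptors. At CD8 week 4 it was at 1016, 1057, 1174, 1135 and 1104 CPM, against 719, 667, 1177, 599.9 and 612 CPM at CD8 week 1. Week 1 replicate 3 was as high as the long-term libraries, and without it the groups would not overlap. It rose in CD8 cells by 1.45-fold (log2 fold change 0.54 ± 0.14, adjusted p = 0.00788), with 0.33 (adjusted p = 0.402) in title range A and 0.87 (adjusted p = 0.000168) in title range B, the range that holds replicate 3 being the one in which it was not called. CD4 week 3 libraries were within a narrow span of 896, 918, 887, 859 and 899 CPM, against 987, 1179, 915, 913 and 1178 CPM at CD4 week 1. There the log2 fold change was -0.21 ± 0.14 and did not pass (adjusted p = 0.304). The CD8 change exceeded the CD4 change by 0.75 ± 0.20, the nearest any of the 9 genes came to a difference (adjusted p = 0.0976). That difference passed by DESeq2 (adjusted p = 0.0220) and without CD8 week 1 replicate 3 (0.97, adjusted p = 0.000463).

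Ccnd3 (ENSMUSG00000034165, chr17:47505051-47599691, plus strand) is the D cyclin of proliferating thymocytes and germinal centre B cells. CD8 week 4 libraries were at 483, 552, 518, 421 and 431 CPM, against 523, 553, 348, 556 and 557 CPM at CD8 week 1. CD4 week 3 libraries were at 382, 513, 315, 288 and 278 CPM, against 353, 374, 466, 457 and 508 CPM at CD4 week 1. The groups overlapped in both cell types, with CD8 week 1 replicate 3 low and CD4 week 3 replicate 2 high. Neither change passed, at -0.078 ± 0.16 in CD8 cells (adjusted p = 0.742, interval of 2 SE -0.40 to 0.25) and -0.28 ± 0.16 in CD4 cells (adjusted p = 0.239). The CD8 value differed in sign between ranges, with 0.11 (adjusted p = 0.763) in title range A and -0.40 (adjusted p = 0.00241) in title range B, and the CD4 value was -0.45 (adjusted p = 0.0299) without CD4 week 3 replicate 2. Which D cyclin was the more abundant per length could not be settled. On merged exon length Ccnd2 took 68.1 ± 3.04%, 57.1 ± 10.7%, 70.5 ± 5.05% and 69.01 ± 4.398% of D cyclin TPM for CD8 at week 4, CD8 at week 1, CD4 at week 3 and CD4 at week 1, while on the length of the longest coding transcript it took 43.4 ± 3.42%, 33.3 ± 11.2%, 46.3 ± 5.81% and 44.6 ± 5.15%, because the merged exons of Ccnd3 span 8775 bases and its longest coding transcript 2113. On both lengths the Ccnd2 share in CD8 week 1 was the lowest of the 4 group means.

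Ccng1 (ENSMUSG00000020326, chr11:40748552-40755311, minus strand) encodes cyclin G1, which binds the phosphatase PP2A and acts back on MDM2 and p53. Its CD8 week 4 libraries were at 374, 379.8, 372, 339 and 457 CPM, against 354, 364, 178, 247 and 239 CPM at CD8 week 1. The first pair of week 1 replicates, both in title range A, reached the long-term range and the other 3 lay below it. CD4 week 3 libraries were at 279.8, 419, 317, 270.2 and 274 CPM, against 243, 278, 274, 245 and 214 CPM at CD4 week 1, with overlap at the low end. It rose in CD8 cells by 1.39-fold (log2 fold change 0.48 ± 0.17, adjusted p = 0.0334) and did not pass in CD4 cells (0.32 ± 0.17, adjusted p = 0.191). The rise was 0.31 (adjusted p = 0.506) in title range A and 0.69 (adjusted p = 0.00920) in title range B. It was lost in 8 of 21 alternatives, at adjusted p of 0.0504 on library totals, 0.0763 with the CD8 groups alone, and 0.0675 to 0.0866 when CD8 week 4 replicate 5 was left out or any of CD8 week 1 replicates 3, 4 and 5. Without CD8 week 4 replicates 1 and 2 together it was 0.50 (adjusted p = 0.0681).

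The 5 rises in CD8 cells stood beside falls among genes downstream of the kinases. Of 20 E2F target genes of the G1 to S transition, 18 fell in CD8 cells and 19 in CD4 cells and none rose. Beside them, 16.4% and 8.8% of all tested genes fell. The 20 genes had median log2 fold changes of -1.39 and -1.77. Among those with the smallest adjusted p, Mcm3, a subunit of the replicative helicase, changed by -1.38 ± 0.34 in CD8 cells (adjusted p = 0.00554), and Slbp, which binds histone mRNA, by -0.84 ± 0.22 in CD8 cells (adjusted p = 0.00787) and -1.002 ± 0.22 in CD4 cells (adjusted p = 0.00755). Gins2, a partner of that helicase, changed by -2.03 ± 0.46 in CD4 cells (adjusted p = 0.00867). In title range A alone none of the 20 was called, against 20 of 20 in title range B. Those fits called 2.31% and 25.1% of all genes lower. Without CD8 week 4 replicates 1 and 2 there were 9, beside 14.8% of all genes. Summed over the 20 genes, CD8 week 4 libraries held 1348 to 2192 CPM, against 2020 to 4889 CPM at CD8 week 1, and CD4 week 3 libraries 675 to 2295 CPM, against 1584 to 4030 CPM at CD4 week 1.

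Of 16 kinases and cyclins that act with or after the D cyclins, 11 fell in CD8 cells and 4 in CD4 cells (Ccne1, Ccne2, Cdc25a and Cdk2), and none rose. Of all tested genes, 16.4% fell in CD8 cells and 8.8% in CD4 cells. Cdk2, the main target of p27, was at 31.7 ± 4.36 CPM in CD8 week 4, against 80.2 ± 20.2 CPM in CD8 week 1, a log2 fold change of -1.34 ± 0.20 (adjusted p = 0.000162). In CD4 week 3 it was at 37.04 ± 11.8 CPM, against 81.7 ± 13.03 CPM in CD4 week 1 (-1.14 ± 0.20, adjusted p = 0.00191). The direct partners of the D cyclins were not called in either cell type: Cdk4 was at 225 ± 17.7 CPM in CD8 week 4, against 272 ± 37.3 CPM in CD8 week 1, and Cdk6 at 479 ± 44.8 CPM in CD8 week 4, against 427 ± 71.9 CPM in CD8 week 1. Of 19 other inhibitor, RB family and E2F genes, 12 fell in CD8 cells and 7 in CD4 cells and none rose. E2f2, an activating E2F, changed by -1.37 ± 0.24 in CD8 cells (adjusted p = 0.000564) and -0.98 ± 0.24 in CD4 cells (adjusted p = 0.0115), and Lin9, a subunit of the complex that pairs with B-Myb, by -0.82 ± 0.14 (adjusted p = 0.000475) and -0.83 ± 0.14 (adjusted p = 0.00151). In title range A alone the falls came to 7 of 16 and 3 of 19, and without CD4 week 3 replicate 2 both CD4 counts of falls came to 11, with 1 rise among the 19. That fit called 12.5% of all genes higher and 14.6% lower. The remaining CIP/KIP gene, Cdkn1c, was at 0.150 ± 0.0677 CPM in CD8 week 4, against 0.193 ± 0.0461 CPM in CD8 week 1, and 0.856 ± 0.395 CPM in CD4 week 3, against 1.08 ± 0.360 CPM in CD4 week 1.

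**Figure D4:**
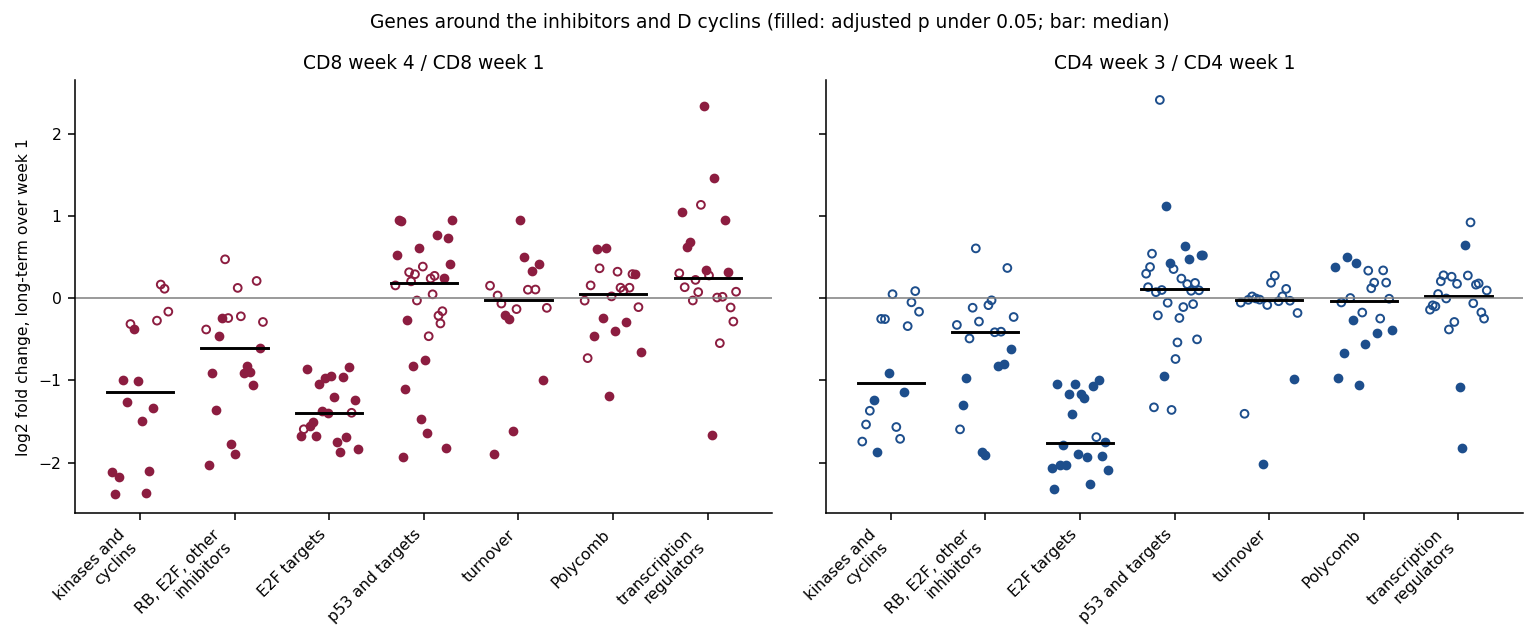
Log2 fold change (vertical axis) of every tested gene in 7 lists for CD8 week 4 over CD8 week 1 (left) and CD4 week 3 over CD4 week 1 (right), with filled points at an adjusted p under 0.05 and a bar at the median of the list. E2F targets lie below 0 in both, with medians of -1.39 and -1.77, while the p53, turnover, Polycomb and transcription regulator lists have medians near 0.

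Genes of the p53 pathway, to which Cdkn1a and Ccng1 belong, went both ways. Of 30, 9 rose and 8 fell in CD8 cells, and 5 rose and 1 fell in CD4 cells. Of all tested genes, 17.1% rose and 16.4% fell in CD8 cells, and 7.67% rose and 8.8% fell in CD4 cells. Mdm4, an inhibitor of p53, rose in CD8 cells (0.61 ± 0.068, adjusted p = 1.27e-05) and in CD4 cells (0.42 ± 0.068, adjusted p = 0.000908), as did Xpc, a DNA damage sensor, at 0.41 ± 0.097 (adjusted p = 0.00384) and 0.52 ± 0.096 (adjusted p = 0.00261). Fas, the death receptor, fell in both, by 0.83 ± 0.17 in CD8 cells (adjusted p = 0.00194) and 0.95 ± 0.17 in CD4 cells (adjusted p = 0.00250) on the log2 scale. Trp53i11, a p53-induced gene, was at 37.04 ± 8.42 CPM in CD8 week 4, against 131 ± 25.5 CPM in CD8 week 1, and had the smallest adjusted p of the falls (-1.82 ± 0.18, adjusted p = 5.87e-06). Mdm2 was at 95.9 ± 3.56 CPM in CD8 week 4, against 97.9 ± 2.72 CPM in CD8 week 1.

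Genes that regulate the transcripts or proteins of the 10 were mixed. Of 20 Polycomb group genes, which hold the Cdkn2a and Cdkn2b locus silent, 3 rose and 6 fell in CD8 cells, and 3 rose and 7 fell in CD4 cells. The shares of all tested genes were 17.1% higher and 16.4% lower in CD8 cells, and 7.67% higher and 8.8% lower in CD4 cells. The 6 that fell in CD8 cells (Cbx6, Eed, Ezh2, Kdm2b, Phc1 and Suz12) were called lower in CD4 cells too. Among the rises, Cbx7 and Ezh1 were called in both cell types. Ezh2, the methyltransferase of cycling cells, was at 108 ± 14.9 CPM in CD8 week 4, against 246 ± 72.8 CPM in CD8 week 1 (-1.19 ± 0.30, adjusted p = 0.00607). Its relative Ezh1 was at 144 ± 28.01 CPM in CD8 week 4, against 94.4 ± 14.7 CPM in CD8 week 1 (0.60 ± 0.14, adjusted p = 0.00374). Cbx7, a reader of the Polycomb histone mark which represses the locus in mouse fibroblasts, was higher in CD8 week 4 (0.59 ± 0.14, adjusted p = 0.00425) and CD4 week 3 (0.50 ± 0.14, adjusted p = 0.0232), and Kdm2b, a histone demethylase with the same effect there, was lower (-0.40 ± 0.10, adjusted p = 0.00749, and -0.56 ± 0.10, adjusted p = 0.00275). Bmi1, the repressor of the locus best known in mouse, was called in CD4 cells (0.38 ± 0.12, adjusted p = 0.0373) and was at 35.6 ± 4.04 CPM in CD8 week 4, against 36.3 ± 2.59 CPM in CD8 week 1. In title range A alone no Polycomb gene was called, and the p53 genes came to 1 that rose and 3 that fell. Without CD4 week 3 replicate 2 the CD4 p53 counts were 6 and 5.

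Of 22 transcription regulators of Cdkn1b, Cdkn2b or D cyclin genes, 8 rose and 1 fell in CD8 cells, and 1 rose and 2 fell in CD4 cells. Smad3, which carries TGF-beta signals to Cdkn2b, was at 165 ± 11.02 CPM in CD8 week 4, against 85.4 ± 11.3 CPM in CD8 week 1 (0.95 ± 0.091, adjusted p = 5.76e-06), and at 107 ± 9.99 CPM in CD4 week 3, against 95.8 ± 7.61 CPM in CD4 week 1, where it was not called. It was the 1 gene of the list whose CD8 change was called higher than its CD4 change. Foxo1, which transcribes Cdkn1b in resting lymphocytes, rose in CD8 cells (0.63 ± 0.095, adjusted p = 0.000186). Mxd4, a Myc antagonist, rose in CD8 cells (1.46 ± 0.17, adjusted p = 2.25e-05) and CD4 cells (0.64 ± 0.17, adjusted p = 0.0173), and its relative Mxd3, a gene of cycling cells, fell in both (-1.67 ± 0.60, adjusted p = 0.0385, and -1.83 ± 0.61, adjusted p = 0.0460). Of 16 tested ubiquitin ligase and kinase genes of inhibitor and cyclin turnover, 4 rose and 5 fell in CD8 cells, and none rose and 2 fell in CD4 cells. Skp2, which targets p27 for destruction, was low, at 1.48 ± 0.331 CPM in CD8 week 4, against 2.96 ± 0.757 CPM in CD8 week 1, and fell in CD8 cells (-0.996 ± 0.24, adjusted p = 0.00418) and CD4 cells (-0.99 ± 0.24, adjusted p = 0.0115). Cks1b, the cofactor of Skp2 in that step, fell in CD8 cells (-1.89 ± 0.49, adjusted p = 0.00712). In title range A alone 2 of the regulators rose and none fell, against 11 and 3 in title range B, and 1 turnover gene fell and none rose. These lists were chosen with earlier results of the data known, and their counts in the full fit are read only beside the 33.5% and 16.5% of all genes called. Counts of any list within a title range are read only beside the share of all genes called in that range. Those shares differ widely between the ranges and are given with the dependence on processing.

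CD8 cells were next set against CD4 cells at the same short time. At week 1, 3 of the 9 genes differed: Cdkn1a and Cdkn2b were higher and Ccnd2 lower in CD8 cells, where 38.1% of all genes were called. Cdkn1a averaged 74.6 ± 38.3 CPM in CD8 week 1 and 15.7 ± 9.602 CPM in CD4 week 1 (SD, n = 5 each), a log2 fold change of 2.25 ± 0.60 (adjusted p = 0.00661), and 4 of 5 CD8 libraries lay above all CD4 libraries. Cdkn2b averaged 1.27 ± 0.604 CPM in CD8 week 1 and 0.360 ± 0.0738 CPM in CD4 week 1 (1.82 ± 0.44, adjusted p = 0.00324), without overlap, as for 23.7% of genes. Ccnd2 averaged 755 ± 241 CPM in CD8 week 1 and 1035 ± 135 CPM in CD4 week 1 (-0.45 ± 0.14, adjusted p = 0.0170), a call lost with these groups alone (adjusted p = 0.0831) and with CD8 week 1 replicate 4 left out (adjusted p = 0.0513) or 5 (adjusted p = 0.0505).

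Between CD8 week 4 and CD4 week 3, whose culture times differ by 7 days, 3 of the 9 genes were higher in CD8 cells and none lower, with 17.7% of all genes higher and 15% lower. Cdkn2b averaged 8.06 ± 2.59 CPM in CD8 week 4 and 3.53 ± 2.14 CPM in CD4 week 3 (1.19 ± 0.37, adjusted p = 0.0181). Cdkn2d averaged 80.02 ± 10.7 CPM in CD8 week 4 and 55.3 ± 9.51 CPM in CD4 week 3 (0.53 ± 0.18, adjusted p = 0.0302). Ccnd3 averaged 481 ± 55.8 CPM in CD8 week 4 and 355 ± 97.4 CPM in CD4 week 3 (0.44 ± 0.16, adjusted p = 0.0469). All 3 overlapped between the groups. The Cdkn2b call held in all 18 alternatives, the Cdkn2d call was lost in 6 and the Ccnd3 call in 11. Ccnd2 was the 1 gene without overlap (1097 ± 62.2 CPM in CD8 week 4 and 892 ± 21.6 CPM in CD4 week 3), yet did not pass (adjusted p = 0.115), and 20.6% of genes had no overlap. Without CD4 week 3 replicate 2, 7 of the 9 genes were higher, beside 22.4% of all genes higher and 18% lower in that fit. Among the 7 were Cdkn1a (1.68, adjusted p = 0.0133) and Cdkn2a (1.59, adjusted p = 0.00390). Title range and cell type cannot be told apart in either of these comparisons, and the donor line and length of activation of each library are not known.

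In order of mean level, Cdkn2b and Cdkn2a shared the sequence CD4 week 1, CD8 week 1, CD4 week 3 and CD8 week 4 from lowest to highest, as did Ccng1. Cdkn2c and Cdkn2d shared another, CD4 week 3, CD8 week 4, CD4 week 1 and CD8 week 1. Cdkn1b was lowest in CD8 week 1 and highest in CD4 week 3, and Cdkn1a lowest in CD4 week 1 and highest in CD8 week 1. Ccnd2 ran CD8 week 1, CD4 week 3, CD4 week 1 and CD8 week 4, Ccnd3 ran CD4 week 3, CD4 week 1, CD8 week 4 and CD8 week 1. Ccnd1 ran CD4 week 1, CD4 week 3, CD8 week 1 and CD8 week 4. Neighbours in these orders overlapped for all 10 genes, with the exception of CD4 week 1 and CD8 week 1 for Cdkn2b.

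Among 11325 genes compared over the 20 libraries, the 3 with the smallest root mean square difference in centred log2 CPM were named for each of the 8 genes called in at least 1 comparison. For Cdkn2b the nearest was Olfm1 (0.543 on the log2 scale), which averaged 16.8, 2.56, 5.29 and 0.703 CPM in CD8 week 4, CD8 week 1, CD4 week 3 and CD4 week 1. Adgrg3 (0.693) and AI661453 (0.715) followed. For Cdkn2a it was Fut8, a fucosyltransferase gene (0.599), with Fbxl2 (0.664) and Prr5l (0.692) next. The nearest to Cdkn1a were Hip1 (0.598), Psrc1 (0.608) and Serpine2 (0.613), and to Cdkn1b Mir5125 (0.229), Zscan2 (0.230) and N4bp2l1 (0.236). For Cdkn2d they were Gnb2, Mrpl14 and Clic1 (0.189 to 0.202), for Ccnd2 Cstf2t, Arhgap30 and Atp6v0c (0.159 to 0.167), for Ccnd3 Ddost, Stk35 and Lage3 (0.140 to 0.157), and for Ccng1 Exoc4, Tmem198 and Pdcd6ip (0.188 to 0.203). A flat gene lies closer to many others than a steep one, so these distances do not compare between genes: Cdkn2b itself spread by 1.63 and Ccnd2 by 0.302 around its mean.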

How the data were processed

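RNA-seq of 20 mouse T cell libraries was used. Per the labels' protocols, poly(A) RNA went into strand-specific NEBNext Ultra II Directional libraries for a NextSeq. The authors deposited raw counts per gene, made with STAR on mm10, per the submitters' processing notes, and featureCounts 1.6.3 (exons summed by gene, reverse strand, GENCODE M12), per the file headers; no option for reads with several matches or overlapping genes was set. None of the 10 genes shares same-strand exons with another gene. On the opposite strand, exons of other genes cover 1100 of the 4709 exon bases of Ccnd1, 740 of Ccnd2 and 361 of Ccnd3. Whether reads from that strand reached the counts, which matters most for the few of Ccnd1, was not tested. The deposited table also holds the merged exon length of each gene, per the file headers, in bases, used for TPM and shares only. An alternative length, chosen after seeing the data, was the longest coding transcript in GENCODE M21.

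The members, lists and tests were chosen with earlier results of these data known. Of 49671 genes, 49412 were named from a table of Ensembl identifiers. The count test was edgeR's quasi-likelihood F test (edgeR 4.0.16, R 4.3.3) after filterByExpr and TMM scaling, with all 4 groups sharing 1 fit and Benjamini-Hochberg adjustment over 13290 genes. SE is the absolute log2 fold change over the square root of F. CPM of markers are per library total. The RNA level of the sorted surface antigens is not reported here. The steps were tested on simulated data. All 40 pairs of libraries within groups differed by more than sampling noise (chi-square per degree of freedom 6.31 to 154). Named genes were all 10 members and, per list and long-term comparison, up to 3 called genes each way. Those 3 had the smallest adjusted p, and a selection of them is printed. Levels of Cdk4, Cdk6, Cdkn1c and Mdm2 were chosen after their values were seen. The naming of Polycomb genes called in both cell types was also chosen then. Gene distances took genes that passed the filter. Alternatives were RLE size factors, library totals, no filter, at least 5 CPM in 5 libraries, DESeq2 1.42.0, limma-voom (limma 3.58.1), the compared groups alone, title range as a term or alone, and each library left out. Python 3.11.15, pandas 2.3.3, numpy 2.4.6 and matplotlib 3.10.9 were used.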

Additional observations from a re-analysis of the deposited data

Results flagged for a closer look

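In each of 39 gene and group combinations of 5 libraries, a library far from the others was marked (gap to the nearest library over 0.710 of the group's range). Chance alone marks about 1 in 20 where values spread normally. That rate does not hold for Ccnd1, whose counts were near 0. The library CD4 week 3 replicate 2 was marked for Cdkn1a, at 85.5 CPM against 8.195 to 20.5 CPM in the other 4, and for Cdkn2a, at 21.5 CPM against 3.005 to 6.83 CPM. CD8 week 1 replicate 3 was marked for Ccnd2, at 1177 CPM against 599.9 to 719 CPM, and for Ccnd3, at 348 CPM against 523 to 557 CPM. Ccnd1 was marked in CD8 week 4 replicate 1, at 0.464 CPM from 13 counts, and in CD4 week 3 replicate 4, at 0.0455 CPM from a single count, where the other 4 libraries had none. A lone count of this kind is always marked. Mki67 was at 630.3 CPM in CD4 week 3 replicate 2 and 543 CPM in CD8 week 1 replicate 3, each apart from its group; its part in these values was not tested.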

How the results depend on the processing

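No paired analysis was run, because the labels give the libraries no replicate numbers, animals or cultures that groups could share. The replicate numbers used here follow sample order within each group. Whether libraries of the same number are related is not known. Over 900 refits of members' log2 fold changes, 809 kept direction and side of the threshold, 44 lost the call, 33 gained it and 14 changed sign; 589 of 700 list counts stayed within 1.5 times. Cdkn2a in CD8 cells, and Cdkn2b in all comparisons but the difference, kept their calls in every alternative run. The 4454 genes called in CD8 cells came to 517 in title range A alone, 4.17% of those tested there, with 2 members called. Title range B alone gave 6386 genes (49.2%) and 8 members, 4 higher and 4 lower, and the fit without CD8 week 4 replicates 1 and 2 gave 4000 genes (29.3%) and 3 members. The 2189 genes of the CD4 comparison came to 1150 (9.29%), with 1 member, in its groups alone. The 87 genes of the difference came to 334 (2.52%), with 1 member, by DESeq2, 55 without a filter and 168 without CD8 week 4 replicates 1 and 2. Without that pair the 4342 genes between the long-term groups came to 2585 (18.9%), with 1 member. Leaving out 1 library in turn gave 3620 to 5351 genes and 4 to 6 members in CD8 cells (fewest genes without week 4 replicate 4, most without week 1 replicate 3), 1090 to 3650 and 1 to 4 in CD4 cells (fewest without week 3 replicate 4, most without week 3 replicate 2), 28 to 317 and 0 to 1 for the difference (fewest without CD8 week 1 replicate 4, most without CD8 week 1 replicate 3), 4314 to 6050 and 3 to 4 between cell types at week 1, and 3431 to 5435 and 1 to 7 between the long-term groups.

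Signs changed only for values that were not called. For Cdkn1a in CD4 cells, 0.91 in the full fit, 1 library carried the sign. Ccnd3 in CD8 cells was 0.11 in title range A, Cdkn2a between cell types at week 1 was -0.019 without CD8 week 1 replicate 4, Cdkn1a in CD4 cells was -0.024 without CD4 week 3 replicate 2, and the difference for Cdkn2d was -0.058 without CD4 week 1 replicate 2. The difference for Cdkn2c, 0.019 in the full fit, was below 0 in 9 fits with 1 library left out, and -0.095 without CD8 week 4 replicates 1 and 2. Over the leave-one-out fits the ranges were -0.019 to 0.51 for Cdkn2a at week 1, -0.024 to 1.33 for Cdkn1a in CD4 cells, and -0.17 to 0.51 and -0.058 to 0.23 for the differences of Cdkn2c and Cdkn2d. The cause of these moves was not tested. Depth limits Ccnd1 in all groups and Cdkn2b in CD4 week 1.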
